A study of Mus musculus with 9 samples.

Results

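Cytoplasmic ribosomal protein genes encode the protein part of the ribosome in the cytosol. They were taken here as the gene symbols that begin with Rpl or Rps followed by a number, with at most a closing a, l or x, together with Rplp0, Rplp1, Rplp2 and Rpsa. Pseudogene rows and the S6 kinases were left out. Of 23238 gene symbols, 81 matched, 49 of the large and 32 of the small subunit, and 79 of them were among the 10107 genes with enough counts to be tested. The testis paralog Rpl10l had no count in any library, and Rpl39l had counts in Nor_Bl_mono replicate 1 alone (12.4 CPM, the counts of a gene over those of its library, scaled to CPM by edgeR with TMM factors).

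The libraries came from monocytes of female wild-type C57BL/6N mice, sorted on day 1 as CD45+, CD11b+, P2ry12-, Ly6C+ and Ly6G- cells. Nor_Bl_mono are blood monocytes of untreated mice. NMO_Bl_mono and NMO_Br_mono are blood and brain monocytes of mice given NMO-IgG, antibody from patients with neuromyelitis optica, together with human complement in the striatum of 1 side. Every group was represented by 3 libraries of 5 pooled mice, so the blood groups differ by the injection as a whole, and the brain group differs from them also in tissue and in how the cells were isolated.

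A ribosome holds a single copy of nearly every ribosomal protein, the stalk proteins Rplp1 and Rplp2 apart, and cells make these proteins in matched amounts. Much of that matching takes place in translation. The mRNAs begin with a C followed by a run of pyrimidines, the TOP motif, through which growth signals by way of mTOR and the binding protein Larp1 hold them back or release them. The counts analysed here measure mRNA alone, so the translation of these mRNAs was not measured. In monocytes, as in other cells of the blood line, ribosomal protein mRNAs are among the most abundant messages.

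The starts of 6 of the genes are shown for that motif, 25 bases before and 25 from the annotated start (RefSeq, GRCm38.p6), read along the gene's own strand with the longest pyrimidine run that touches the 10 bases either side of the start in capitals. Rpl7a has the longest run of those printed, Rpl4 is the gene with the smallest p in edgeR, Rpl35 and Rps26 stood apart in a single library, and Rps27 and Rps27l are a pair of paralogs that stood apart in opposite ways. They lie at chr2:26910782-26910831 (plus strand), chr9:64173362-64173411 (plus), chr2:39005107-39005156 (minus), chr10:128626482-128626531 (minus), chr3:90213624-90213673 (minus) and chr9:66946061-66946110 (plus), in that order.
Rpl7a: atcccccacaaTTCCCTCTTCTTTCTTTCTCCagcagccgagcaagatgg
Rpl4: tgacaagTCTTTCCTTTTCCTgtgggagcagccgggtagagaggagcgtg
Rpl35: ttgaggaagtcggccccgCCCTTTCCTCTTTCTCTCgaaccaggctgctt
Rps26: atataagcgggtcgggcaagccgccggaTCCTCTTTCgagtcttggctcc
Rps27: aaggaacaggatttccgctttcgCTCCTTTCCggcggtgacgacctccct
Rps27l: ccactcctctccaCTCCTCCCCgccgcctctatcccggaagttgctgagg
The run of Rpl7a is 21 bases long and that of Rpl35 18 bases, and both cross the start. The runs of Rpl4 and Rps27l end before the annotated start, and Rps27 and Rps27l each hold a run of 9 bases. For Rpl7a and Rps27l the start used lies inside the annotated gene, which begins at chr2:26910685 and chr9:66944624 respectively.

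Promoters of 60 of the 81 genes were matched, and 35 of them (58.3%) held a C followed by at least 4 further pyrimidines that begins within 10 bases of the start, against 30.8% of all 27025 promoters and 32.6% of those of genes tested. A pyrimidine run of at least 8 bases, placed as above, was found in 43.3%, against 13.9% of all promoters. The letters CCGGAAG, which lie within sites bound by ETS factors, stood on either strand of 40.0% of the promoters from 250 bases before to 50 after the start, against 9.12% of all and 19.9% of those of genes tested. TATAAA was found in 8.33%, against 14.2% of all and 6.95% of those of genes tested, and CACGTG, an E-box, in 8.33%, against 7.24% and 10.6%. The genes were spread over 19 chromosomes, with 14 of them on chromosome 7.

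Total counts ranged from 7584649 to 10419647 per library, and Rn45s, the ribosomal RNA precursor, took 28.4% to 43.6% of them. Markers of monocytes summed to 3489 to 9398 CPM and overlapped among the groups, while markers of NK cells summed to 2502 to 3566 CPM in the 6 blood libraries and 66.8 to 392 CPM in the brain libraries. Sums of platelet, erythroid and T cell markers were also lower in every brain library, and those of microglia markers (186 to 641 CPM against at most 70.8 CPM in blood) were higher. The sum of neutrophil markers was higher too (442 to 1864 CPM against at most 315 CPM), but its genes differed. Of 9 tested in NMO_Br_mono against NMO_Bl_mono, 2 were higher and 1 lower at an unadjusted p under 0.05 (edgeR), against 1.48% and 3.84% of all genes. Retnlg and Mmp9 had no count in any brain library. The part of these markers in the values of the ribosomal protein genes was not tested. A pair of libraries had the fewest genes with a count, NMO_Bl_mono replicate 3 with 4567 and NMO_Br_mono replicate 2 with 6473. For the ribosomal protein genes, the share of counts, the counts without overlap and the spread are also given without these libraries. Results for the gene lists of the wider translation machinery are given with all libraries only.

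As a whole, the ribosomal protein genes took nearly the same part of the counts in the 3 groups. Their share of all counts was 2.22%, 2.34% and 2.57% in Nor_Bl_mono replicates 1 to 3, 2.15%, 2.52% and 2.78% in NMO_Bl_mono, and 2.86%, 2.44% and 2.40% in NMO_Br_mono. The group means were 2.38% ± 0.18, 2.48% ± 0.31 and 2.57% ± 0.26 (SD, n = 3 each), so the means lay closer together than the libraries of a group, and all groups overlapped. With Rn45s left out of the total the shares were 3.78% ± 0.17, 3.76% ± 0.11 and 3.92% ± 0.69, and NMO_Br_mono replicate 1 stood alone at 4.72%, above the range of 3.48% to 3.94% of the other libraries. Without NMO_Bl_mono replicate 3 and NMO_Br_mono replicate 2 the share of all counts was 2.34% in NMO_Bl_mono and 2.63% in NMO_Br_mono (n = 2 each). The large subunit held 58.4% to 61.5% of the ribosomal protein counts in every library.

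**Figure D1:**
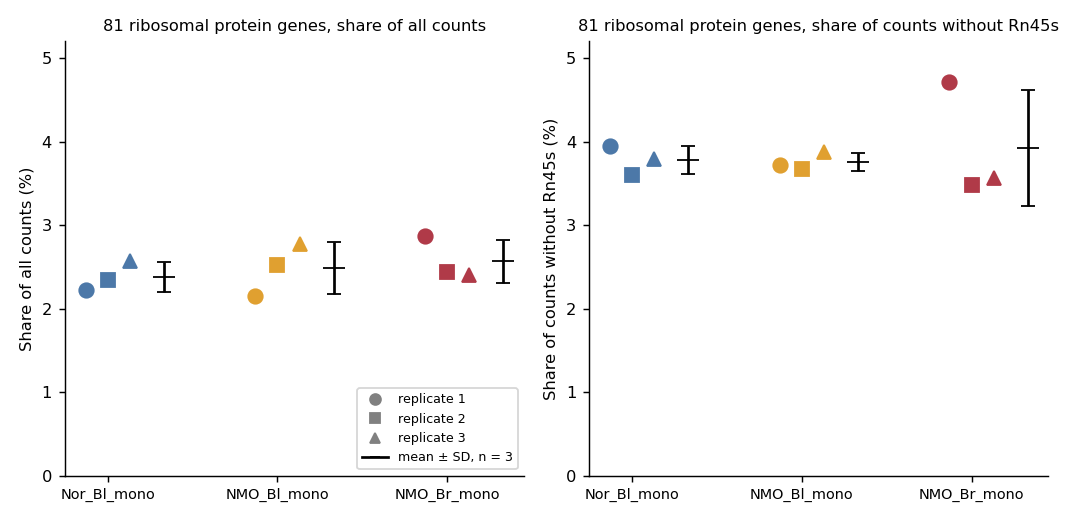
Share of the counts of each library taken by the 81 ribosomal protein genes, of all counts (left) and with Rn45s left out (right), in percent, with a symbol for each replicate and the mean ± SD of each group (n = 3) beside it. The groups overlap in both panels, and NMO_Br_mono replicate 1 is the highest point on the right at 4.72%.

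The comparison of NMO_Br_mono with NMO_Bl_mono asks what differs between monocytes that entered the injured brain and those in the blood of the same model. No ribosomal protein gene of 79 was called by edgeR's quasi-likelihood test at an adjusted p under 0.05, where 0.247% of all genes tested were called. A single one, Rpl4, passed an unadjusted p under 0.05 in the higher direction and 0 passed in the lower, against 1.48% and 3.84% of all genes. DESeq2 also called 0 of them, with 0 at an unadjusted p under 0.05, where it called 334 of all genes and 9.46% passed unadjusted. limma-voom called 0 of them, with 3 (3.80%) at an unadjusted p under 0.05, where it called 51 of all genes and 12.8% passed unadjusted. In 7 genes (Rpl4, Rpl10, Rpl10a, Rpl11, Rpl18, Rpl29 and Rps12) every brain library was above every NMO blood library, 8.86% of those tested against 6.3% of all genes, and in 0 was every one below, against 6.05%. Without NMO_Bl_mono replicate 3 and NMO_Br_mono replicate 2, which leaves 2 libraries against 2, these counts were 18 higher and 6 lower, against 16.6% and 26.7% of all genes. The median of the fitted log2 fold changes was 0.15 over the ribosomal protein genes and 0.05 over all genes, with a median standard error of 0.54 for a single ribosomal protein gene. The median over the ribosomal protein genes was -0.03 without NMO_Br_mono replicate 1 and 0.35 without NMO_Br_mono replicate 2, so its direction and size rest on single libraries. That error is larger than the upper quartile of the fitted changes, 0.39. The fit shares its estimate of the spread among all genes tested.

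Rpl4 lines the peptide exit tunnel of the large subunit. Its levels were 464, 850 and 911 CPM in Nor_Bl_mono, 555, 584 and 501 CPM in NMO_Bl_mono and 909, 1379 and 754 CPM in NMO_Br_mono. The brain libraries were all above the NMO blood libraries, whereas the normal blood libraries spanned both. The log2 fold change of NMO_Br_mono against NMO_Bl_mono was 0.89 (SE 0.36, edgeR adjusted p = 0.802). Without NMO_Br_mono replicate 2 it was 0.62, and without both libraries with few genes 0.56, and Rpl4 passed the unadjusted threshold in neither fit. No 75-base stretch of the last 300 bases of the Rpl4 transcript occurs in an annotated transcript of another gene. The genome outside annotated transcripts was not searched.

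None of the other 6 genes without overlap passed the unadjusted threshold in edgeR. Rps12, a protein of the small subunit's beak, had 76.2, 65.6 and 56.5 CPM in NMO_Bl_mono and 147, 125 and 82.3 CPM in NMO_Br_mono (log2 fold change 0.84, SE 0.72), with 106, 93.6 and 85.4 CPM in Nor_Bl_mono. Rpl10, which helps to shape the peptidyl transferase centre and joins the large subunit last, had 320, 362 and 209 CPM in NMO_Bl_mono and 532, 424 and 377 CPM in NMO_Br_mono (0.58, SE 0.40). In both genes the normal blood libraries lay between or among the NMO groups. Rpl11, which with Rpl5 and the 5S RNA can bind Mdm2 and so bears on p53, had 48.5, 61.7 and 39.7 CPM in NMO_Bl_mono and 88.2, 125 and 80.4 CPM in NMO_Br_mono (0.97, SE 0.88), and its brain libraries were also above Nor_Bl_mono at 34.2, 64.4 and 72.4 CPM. Its partner Rpl5 did not follow it, with 255, 418 and 257 CPM in NMO_Bl_mono and 413, 317 and 424 CPM in NMO_Br_mono, which overlap. Rpl18, also of the large subunit, had 170, 121 and 64.5 CPM in NMO_Bl_mono and 233, 179 and 202 CPM in NMO_Br_mono (0.79, SE 0.57).

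When the spread of each gene alone was used, in a linear model on log2(CPM + 1) without sharing of the spread, 5 ribosomal protein genes (Rpl4, Rpl10, Rpl11, Rpl18 and Rps12) passed an unadjusted p under 0.05, all higher in NMO_Br_mono, 6.33% of them against 6.98% of all genes, and 0 passed after adjustment over all genes (smallest adjusted p = 0.440, limma). The 95% interval of a difference then reached 0.84 on the log2 scale to either side for the median gene, a factor of 1.79. For 26 of the 79 genes the whole interval lay within 1 log2 unit of no change. For the most abundant of them, Rplp1, it ran from -0.56 to 0.87.

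**Figure D2:**
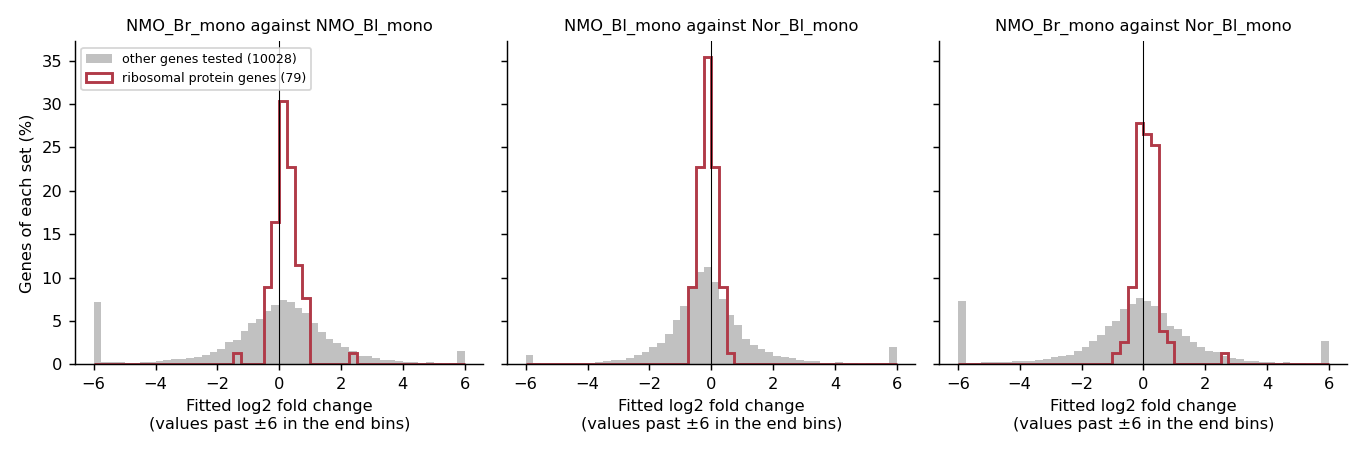
Distribution of the log2 fold changes fitted by edgeR for the 79 ribosomal protein genes (red line) and the 10028 other genes tested (grey), as the percent of each set in bins, for the 3 comparisons of monocyte groups. The ribosomal protein genes lie in a narrow peak near 0, with medians of 0.15, -0.15 and 0.05 from left to right, and the 2 values farthest out on the left panel are Rps4l (2.39) and Rps27l (-1.43).

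The comparison of NMO_Bl_mono with Nor_Bl_mono sets blood monocytes of injected mice against those of untreated mice. It covers the injection as a whole and cannot single out the lesion. edgeR called 0 ribosomal protein genes and 0% of all genes. DESeq2 and limma-voom also called 0 ribosomal protein genes, where they called 72 and 0 of all genes. At an unadjusted p under 0.05, 0 ribosomal protein genes passed by any of the 3 tools, where 0.465% of all genes passed in edgeR as higher and 0.247% as lower, and 2.41% passed in DESeq2 and 4.92% in limma-voom. In Rpl38 and Rps3 every NMO library was above every normal one, 2 of 79 against 2.34% of all genes, and in 7, among them Rpl19, Rpl23, Rps12, Rps13 and Rps20, every one was below, 8.86% against 4.45%. Without NMO_Bl_mono replicate 3 the counts were 7 higher and 8 lower, against 11.6% and 5.97% of all genes. Rpl19, a protein at the tunnel exit, had 295, 281 and 284 CPM in Nor_Bl_mono and 225, 187 and 177 CPM in NMO_Bl_mono (log2 fold change -0.55, SE 0.46). Rps20, of the small subunit's head, had 748, 690 and 724 CPM against 616, 614 and 626 CPM (-0.22, SE 0.32). In both genes the groups lay apart without overlap, by more than the fitted standard error in Rpl19 and by less in Rps20. The median over the ribosomal protein genes was -0.15, near that of all genes (-0.16), and it was 0.03 without NMO_Bl_mono replicate 3 and 0.01 with library sizes in place of TMM factors, so its direction rests on that library and on the scaling.

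The comparison of NMO_Br_mono with Nor_Bl_mono shares its libraries with the others. edgeR called 0 ribosomal protein genes against 0.247% of all genes, DESeq2 and limma-voom called 0, and 0, 0 and 2 passed an unadjusted p under 0.05 by these tools in turn, where 1.75% of all genes passed in edgeR as higher and 4.07% as lower, 10.2% in DESeq2 and 11.7% in limma-voom. Groups did not overlap in 4 genes as higher in the brain (Rpl3, Rpl11, Rpl18 and Rps4l), 5.06% against 6.07% of all genes, and in Rpl30 alone as lower, 1.27% against 9.37%. Without NMO_Br_mono replicate 2 they were 9 higher and 1 lower, against 13.1% and 13.1% of all genes. Rpl30 had 98.1, 88.5 and 97.6 CPM in Nor_Bl_mono and 78.2, 40.5 and 62.0 CPM in NMO_Br_mono (log2 fold change -0.65, SE 0.81). Rpl3, which reaches into the peptidyl transferase centre, had 182, 111 and 295 CPM in Nor_Bl_mono and 309, 307 and 317 CPM in NMO_Br_mono (0.67, SE 0.49). The brain libraries of Rpl3 lay close together just above the highest normal one, which was far from the other normal libraries.

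The levels themselves spanned a wide range, from 2.67 CPM for Rpl3l to 1525 CPM for Rplp1 as means over the 9 libraries. Reads of these libraries start at the 3ʹ end of a transcript, so counts were not divided by length, and levels between genes also reflect how well each 3ʹ end was captured and how its reads aligned. The 6 genes with the most counts were Rplp1, Rps9, Rpl22, Rps14, Rps29 and Rpl4, with means of 1525, 1023, 872, 847, 786 and 767 CPM. Rplp1, an acidic protein of the stalk that recruits the GTP-bound factors, had 1956, 1367 and 1531 CPM in Nor_Bl_mono, 1568, 1746 and 927 CPM in NMO_Bl_mono and 1894, 1412 and 1320 CPM in NMO_Br_mono. All groups overlapped and the lowest value was that of NMO_Bl_mono replicate 3. Rps14, which lies on the small subunit's platform and whose loss from a deleted chromosome arm underlies a human anaemia, had 1281, 901 and 836 CPM in Nor_Bl_mono, 1164, 953 and 448 CPM in NMO_Bl_mono and 844, 515 and 676 CPM in NMO_Br_mono (NMO_Br_mono against Nor_Bl_mono -0.57, SE 0.38). The brain libraries were at or below the lower end of the normal ones, with an overlap of 844 and 836 CPM.

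Among the other stalk proteins, Rplp0, the base to which the acidic proteins attach, had a mean of 431 CPM with a range of 310 to 502 CPM over the 9 libraries, and Rplp2 a mean of 560 CPM with a range of 343 to 698 CPM. Rpl12, which sits at the foot of the stalk, was listed far lower at 26.6 to 66.5 CPM, the lowest mean of the 79 ribosomal protein genes apart from Rpl3l and Rps4l. Rpsa, the 40S protein also known as the laminin receptor, had 178 to 372 CPM. None of these 4 had groups that did not overlap in any comparison.

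Rps6, the target of the S6 kinases, had 148, 189 and 175 CPM in Nor_Bl_mono, 165, 171 and 177 CPM in NMO_Bl_mono and 278, 174 and 294 CPM in NMO_Br_mono (NMO_Br_mono against NMO_Bl_mono 0.54, SE 0.49). Its brain libraries 1 and 3 were above all blood libraries and replicate 2 was among them. Rpl13a, which in activated monocytes is phosphorylated and leaves the ribosome to silence inflammatory messages, had 440, 462 and 366 CPM in Nor_Bl_mono, 392, 396 and 264 CPM in NMO_Bl_mono and 384, 319 and 306 CPM in NMO_Br_mono. Its highest and lowest library differed by 1.75 times, and its groups overlapped in every comparison. In the decoding and mRNA entry region, Rps2, Rps3, Rps9, Rps15 and Rps23 had fitted log2 fold changes of NMO_Br_mono against NMO_Bl_mono from 0.03 to 0.65.

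Of the genes mutated in Diamond-Blackfan anaemia, Rps19 had 65.1, 62.1 and 71.6 CPM in Nor_Bl_mono, 60.2, 83.6 and 71.1 CPM in NMO_Bl_mono and 104, 51.4 and 117 CPM in NMO_Br_mono, which overlap. Rps24 ranged from 390 to 659 CPM and Rps7 from 75.3 to 104 CPM over the 9 libraries, a ratio of 1.39 for Rps7 that was the smallest of all 79 genes. Rps27a, made as a fusion with ubiquitin, had 169 to 398 CPM. Rps26, from the same group of anaemia genes, is described with the libraries that stood apart.

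The tissue-limited paralogs Rpl3l and Rps4l had the lowest means of the 79 genes and no count in some libraries. Rpl3l, the copy of Rpl3 used in heart and skeletal muscle, had 0, 7.25 and 0 CPM in Nor_Bl_mono, 3.76, 4.22 and 0 CPM in NMO_Bl_mono and 8.77, 0 and 0 CPM in NMO_Br_mono, against a mean of 255 CPM for Rpl3. Rps4l had 6.58, 9.67 and 0 CPM in Nor_Bl_mono, 18.7, 1.41 and 0 CPM in NMO_Bl_mono and 12.8, 29.0 and 63.4 CPM in NMO_Br_mono, against a mean of 211 CPM for its X-linked counterpart Rps4x. All brain libraries of Rps4l were above all normal ones (NMO_Br_mono against Nor_Bl_mono 2.69, SE 2.75), with an error larger than the difference. The last 300 bases of Rpl3, Rpl10, Rpl39 and Rps27 share no 75-base stretch with those of Rpl3l, Rpl10l, Rpl39l and Rps27l, so no exact read of that length from there fits both genes of a pair.

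The ribosomal protein genes varied less between replicates than most other genes with a mean of 40.2 to 1525 CPM. The SD within groups of log2(CPM + 1) had a median of 0.42 over the 79 genes, against 1.20 over the 3487 other genes with a mean in the range of 40.2 to 1525 CPM, and 75 of 79 were under that value. The highest and the lowest of the 9 libraries differed by less than 2 times in 18 genes (22.8%) and by less than 3 times in 57 (72.2%), against 1.86% and 10.9% of the other genes in the range. Of the ribosomal protein genes tested, 3 (3.80%) had a library with 3 counts or fewer, against 39.1% in the range. Without NMO_Bl_mono replicate 3 and NMO_Br_mono replicate 2 the median SD was 0.32 against 0.61, with 74 of 79 genes under the latter, and 46 genes (58.2%) stayed within 2 times against 10.3%. No test was run on this difference, since the genes are not independent replicates. The sets were not matched for level within the range, and the part of level in the difference was not tested.

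**Figure D3:**
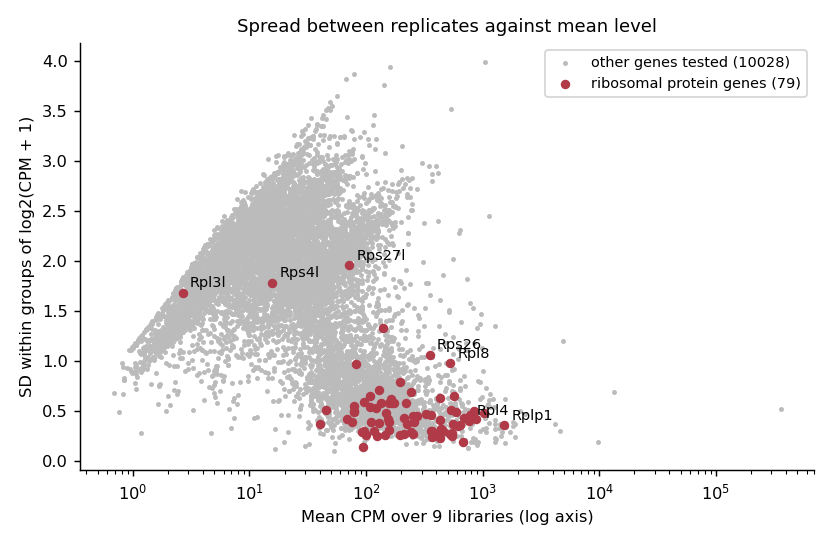
SD within groups of log2(CPM + 1) against the mean CPM over the 9 libraries (log axis) for the 79 ribosomal protein genes (red) and the other genes tested (grey). The red points lie along the lower edge of the cloud with a median of 0.42, and Rps27l, Rps4l, Rpl3l, Rps26 and Rpl8 stand above it.

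Reads that align to several places were counted, and ribosomal protein genes have many processed pseudogenes. In the last 300 bases of the transcript, 59 of 80 genes shared at least 1 stretch of 75 bases with another annotated transcript, and the median gene shared 48.9% of its stretches. Over 50% was shared in 37 genes (46.3%), against 2.42% of the other genes tested. Rpl10, Rpl36a, Rps12 and Rps27 shared all of theirs, those of Rps27 with its retrogene Rps27rt, so their counts cannot be assigned to a single locus. The spread within groups was 0.35 in the median of 19 genes with nothing shared, 0.47 in 22 genes with up to 50% shared and 0.39 in 37 genes with more, so the low spread was found with and without shared stretches.

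The mix of the ribosomal protein counts differed in 2 libraries. Each gene's part of the ribosomal protein counts in a library was set against the median of the other 8 libraries. In NMO_Bl_mono replicate 3, 11 of 78 genes were over 2 times below that median and 4 over 2 times above, and in NMO_Br_mono replicate 2, 3 were below and 5 above. In each of the other 7 libraries at most 1 gene was below and at most 1 above. Both are also the libraries with the fewest genes with a count, NMO_Bl_mono replicate 3 had the lowest sum of monocyte markers (3489 CPM), and NMO_Br_mono replicate 2 had the highest sums of microglia (641 CPM) and neutrophil markers (1864 CPM). Their part in the mix was not tested.

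The genes that were low in NMO_Bl_mono replicate 3 are of both subunits. Rpl35, which lies at the tunnel exit, had 188, 152 and 207 CPM in Nor_Bl_mono, 175, 128 and 44.7 CPM in NMO_Bl_mono and 224, 206 and 156 CPM in NMO_Br_mono. Rps26, which contacts the mRNA upstream of the start codon, had 373, 356 and 307 CPM, 392, 363 and 52.3 CPM, and 723, 228 and 375 CPM in the same order. Rpl8, a protein near the peptidyl transferase centre, had 698, 455 and 538 CPM, 615, 542 and 105 CPM, and 930, 274 and 572 CPM. In all 3 genes a single library fell far below the other 8, while the other NMO_Bl_mono libraries were near the range of Nor_Bl_mono. Their parts of the ribosomal protein counts in that library were 0.347, 0.188 and 0.239 times the median of the others.

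The paralogs Rps27 and Rps27l moved apart in the same library. Rps27 had 165, 62.9 and 71.5 CPM in Nor_Bl_mono, 123, 59.8 and 21.9 CPM in NMO_Bl_mono and 125, 35.7 and 71.3 CPM in NMO_Br_mono. Rps27l, a p53-inducible copy of it, had 85.4, 65.1 and 72.7 CPM in Nor_Bl_mono, 45.5, 84.2 and 181 CPM in NMO_Bl_mono and 65.7, 0.189 and 49.1 CPM in NMO_Br_mono. In NMO_Bl_mono replicate 3, Rps27 was thus at its lowest and Rps27l at its highest. In NMO_Br_mono replicate 2, Rps27l had 2 counts where the other brain libraries had 584 and 496. Rpl4, Rpl9, Rpl11 and Rps4l were among those over 2 times above the median in that library, with Rpl9 at 181 CPM against 47.6 to 107 CPM elsewhere.

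**Figure D4:**
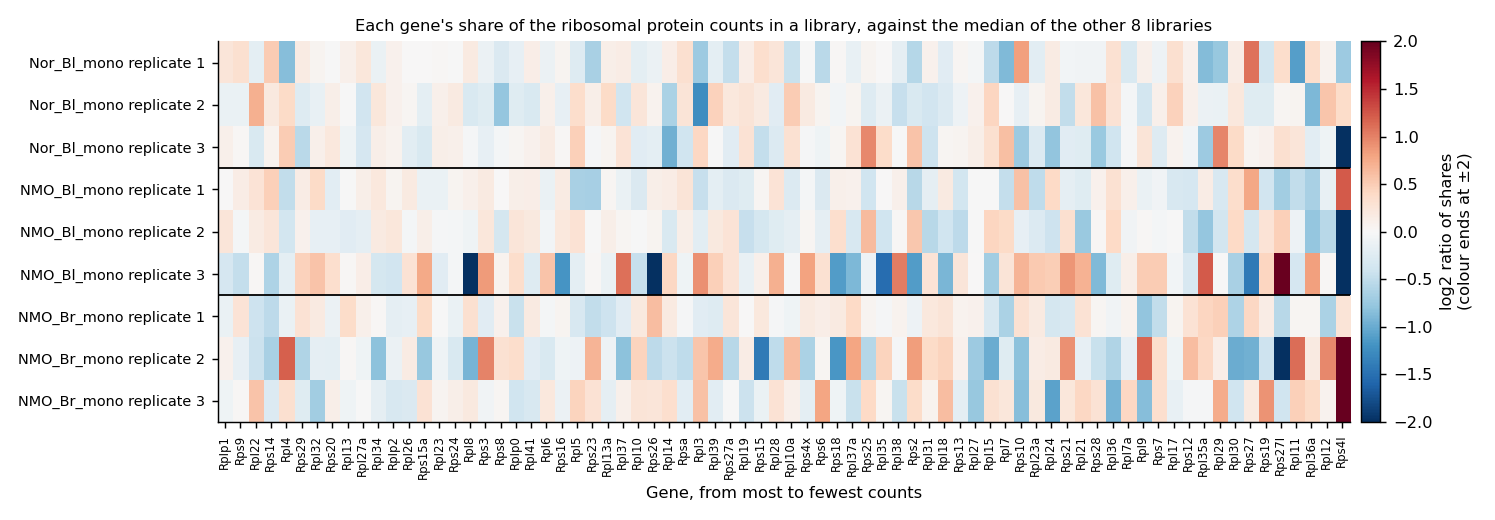
Part of single ribosomal protein genes in the ribosomal protein counts of a library, as the log2 ratio to the median of the other 8 libraries (red above, blue below, colour ends at ±2), with genes from most to fewest counts and a few genes not drawn. NMO_Bl_mono replicate 3 and NMO_Br_mono replicate 2 are the rows with the most cells of deep colour, and the other 7 are mostly pale. Rps4l is at an end of the colour scale also in Nor_Bl_mono replicate 3, NMO_Bl_mono replicate 2 and NMO_Br_mono replicate 3.

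**Figure D5:**
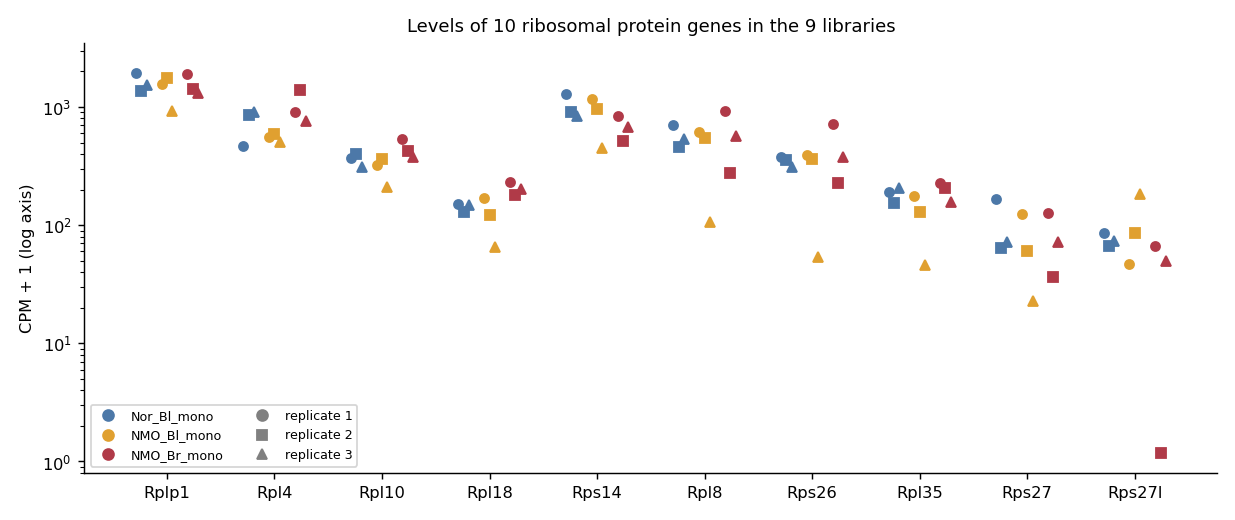
Levels of 10 ribosomal protein genes as CPM + 1 (log axis) in the 9 libraries, with a colour for each group and a symbol for each replicate. NMO_Bl_mono replicate 3 (yellow triangles) is far below the rest in Rpl8, Rps26 and Rpl35 and highest in Rps27l, and NMO_Br_mono replicate 2 (red squares) is highest in Rpl4 and has 2 counts in Rps27l.

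The wider translation machinery was examined by lists of genes, and edgeR called 0 genes of any list in any comparison after adjustment, with the counts at an unadjusted p under 0.05 given for NMO_Br_mono against NMO_Bl_mono, where 1.48% of all genes passed as higher and 3.84% as lower. Of 42 initiation factors tested, 1 (2.38%) was higher and 0 lower, with a median log2 fold change of 0.23. That gene was Eif2s2, a subunit of the factor that brings the initiator tRNA, with 240, 225 and 123 CPM in NMO_Bl_mono and 418, 445 and 321 CPM in NMO_Br_mono (1.01, SE 0.46, edgeR adjusted p = 0.802). Eif1, which guards start codon choice, had 475, 728 and 602 CPM against 353, 366 and 443 CPM (-0.64, SE 0.34), and Eif3e had 114, 112 and 311 CPM against 95.1, 69.2 and 92.1 CPM. Of 9 elongation and release factors 0 passed in either direction, and Eef1a1, which carries aminoacyl-tRNA, had 984, 1532 and 1121 CPM against 1393, 2005 and 1291 CPM. Eef1g had 61.3, 78.3 and 11.3 CPM against 120, 118 and 85.8 CPM, and Eef2k was listed at 0 in all brain libraries but at no more than 20.0 CPM in the NMO blood libraries.

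Among 27 other genes with a TOP start, 1 (3.70%) was higher and 0 lower. That gene was Vim, the intermediate filament vimentin, with 1266, 1452 and 1207 CPM in NMO_Bl_mono and 2220, 3003 and 2505 CPM in NMO_Br_mono (0.98, SE 0.25, edgeR adjusted p = 0.298). Gnb2l1, the small subunit scaffold Rack1, had 485, 444 and 346 CPM against 834, 543 and 576 CPM (0.62, SE 0.35). The median of that list was 0.20, close to the 0.15 of the ribosomal protein genes. Of 56 ribosome assembly factors 0 passed in either direction, and the smallest p among them belonged to Gnl3, Heatr1 and Wdr43, with log2 fold changes of -2.51 (SE 1.40), 2.59 (SE 1.47) and -0.74 (SE 0.56).

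Of 19 genes of RNA polymerase I and its factors, 1 (5.26%) was lower and 0 higher. That gene was Polr1a, the largest subunit, with 20.3, 27.7 and 75.0 CPM in NMO_Bl_mono and 1.01, 0 and 0 CPM in NMO_Br_mono, while Polr1e and the shared subunit Polr2h were at or under 9.33 CPM in NMO_Bl_mono and listed at 0 in all brain libraries. Of 21 genes of TOR and growth signalling, 3 (14.3%) were lower and 0 higher. Mtor, the kinase itself, had 15.2, 22.4 and 50.9 CPM against 0.337, 0 and 0 CPM, and Tsc1, its upstream brake, had 20.8, 32.9 and 105 CPM against 1.24, 1.04 and 0 CPM. The other was Rps6kb2, with 3.76, 4.11 and 0 CPM against 0 in all brain libraries. In NMO_Br_mono against Nor_Bl_mono, by contrast, 0 of these 21 genes passed an unadjusted p under 0.05 (edgeR), against 1.75% of all genes as higher and 4.07% as lower. The brain and normal blood libraries overlapped in every 1 of them. Among the NMO_Bl_mono libraries, Polr1a, Mtor and Tsc1 were each highest in replicate 3, and the list counts were not taken without that library. Of 75 mitochondrial ribosomal protein genes 0 passed in either direction in NMO_Br_mono against NMO_Bl_mono, with a median of 0.20. Mrpl9, Mrps10 and Mrpl55, those with the smallest p, were each at or under 34.6 CPM in every NMO_Bl_mono and NMO_Br_mono library.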

How the data were processed

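The deposited tables, 1 for each of 9 libraries, hold raw counts per gene symbol. The authors aligned single-end QuantSeq 3ʹ reads with Bowtie2 (mm10, per the submitters' processing notes), counted unique and multiple alignments with bedtools, and deposited these counts before normalization; tool versions were not given in the sources used here. The entry with most counts was kept for 35 repeated symbols. In R 4.3.3, edgeR 4.0.16 (TMM, filterByExpr, glmQLFit and glmQLFTest, checked on simulated data) was fitted to all 9 libraries, with Benjamini-Hochberg adjustment over 10107 genes. The simulated check required recovery of changed genes only at a dispersion far below the common dispersion of 2.87 fitted here. DESeq2 1.42.0, limma 3.58.1 (voom with quality weights), other scalings and filters, a replicate block and each replicate left out were alternatives. Shared stretches came from GENCODE vM21 transcripts, and promoters and positions from RefSeq GRCm38.p6. p-values measure the spread between pools of 5 mice.

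The genes and lists were chosen with earlier results of these data known. Genes named are those with p under 0.05 (at most 6 per comparison), the 6 with most and the 6 tested with fewest counts, the stalk proteins and Rpsa, paralogs, members with 3 counts or fewer in a library, up to 4 per role, and the 3 of smallest p per list. Others, chosen after their values were seen, are those without overlap between groups or apart in a single library. Beside the 81 genes, 14 related rows outside the rule, such as Rps3a1, were kept apart. Single values of a few genes are not reported here.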

Additional observations from a re-analysis of the deposited data

How the results depend on the processing

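Across 20 alternatives per comparison, 0 ribosomal protein genes were called in any, with smallest adjusted p-values of 0.254, 0.9996 and 0.240 for NMO_Br_mono against NMO_Bl_mono, NMO_Bl_mono against Nor_Bl_mono and NMO_Br_mono against Nor_Bl_mono (limma-voom each). At most 5, 0 and 2 passed an unadjusted p under 0.05. The median log2 fold change of NMO_Bl_mono against Nor_Bl_mono moved from -0.15 to 0.0079 with library sizes alone, 0.034 with limma-voom and 0.031 without both NMO_Bl_mono replicate 3 and NMO_Br_mono replicate 2, and ranged from -0.22 to 0.032 with each replicate left out. The median of NMO_Br_mono against NMO_Bl_mono was above 0 in 19 of 20 alternatives, the exception being -0.03 without NMO_Br_mono replicate 1. It was at most 0.35 (without NMO_Br_mono replicate 2). The median of NMO_Br_mono against Nor_Bl_mono ranged from -0.20 (without NMO_Br_mono replicate 1) to 0.20. Library sizes alone turned the sign of 16, 15 and 4 genes, and limma-voom moved the median of all genes from 0.05 to -0.67 in the first comparison. The unadjusted p of Rpl4 was above 0.05 without NMO_Br_mono replicate 2 (0.120), without NMO_Bl_mono replicate 1 (0.0551), without both libraries named above (0.168), with library sizes alone (0.0681) and with DESeq2 (0.0522). With a replicate block the fit called 0 ribosomal protein genes in each comparison and the medians were 0.14, -0.19 and 0.01. Same-numbered libraries correlated at -0.010 to 0.116 in their deviations from group means, with 1 of 9 pairs over 0.1. Differently numbered libraries correlated at -0.096 to 0.030. Replicate 1 had the highest Rn45s share of its group in Nor_Bl_mono, NMO_Bl_mono and NMO_Br_mono (43.6%, 42.2% and 39.3%). It also had the most genes with a count (10669, 11556 and 9875). The main fit did not use the numbers, and whether they mark pairs or batches cannot be told from the labels. The share of counts was 3.78%, 3.76% and 3.92% without Rn45s and 2.75%, 2.85% and 2.91% with the related rows added, for Nor_Bl_mono, NMO_Bl_mono and NMO_Br_mono. The fit with each gene's own spread and the fits and counts without both libraries were chosen after seeing the data. Depth limits the paralogs and the low genes of the lists, where a count of 3 is 0.27 to 0.43 CPM.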
